A study of Mus musculus with 28 samples.

Results

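The nuclear-encoded subunits of the mitochondrial oxidative phosphorylation complexes were followed in whole brain from 28 mice, 1 array per mouse. They were taken as the probe sets paired with exactly 1 gene symbol that starts with Nduf, Uqcr or Atp5, that starts with Cox followed by 4, 5, 6, 7 or 8, or that is Sdha, Sdhb, Sdhc or Sdhd. The rule found 98 of the 12422 probe sets on the array that are not controls, for 71 genes. A probe set is a group of short oligonucleotides, and its signal is a linear brightness. Whether a probe set paired with 1 symbol also reads related transcripts was not tested. Of the 98, 72 probe sets of 64 genes exceeded the median signal of their own array in at least 3 arrays and were tested, among 7350 probe sets tested in all. They comprised 29 of 38 probe sets for complex I, 2 of 4 for the complex I assembly factors Ndufaf1 and Ndufaf4, 4 of 4 for complex II, 7 of 7 for complex III, 14 of 23 for complex IV and 16 of 22 for complex V. The 26 left out had median signals from 1.4 to 34.4, and 7 genes (Ndufa1, Ndufa12, Ndufc2, Cox5a, Cox7a1, Cox8a and Atp5j2) had no probe set that was tested.

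All mice were of the C57BL/6J strain, both sexes were present in each group, and ages ran from 6 to 9 weeks. There were 6 untreated wild-type mice, 5 untreated alpha7 +/T mice and 5 untreated beta4 null mice, and 3, 5 and 4 mice of these genotypes were taken 1 hour after a seizure brought on by nicotine injected into the peritoneum. Mice called alpha7 +/T carry 1 copy of the L250T form of the alpha7 nicotinic acetylcholine receptor subunit, and beta4 null mice have no functional beta4 subunit gene. Nicotine was dosed for each genotype to give a like seizure score, so genotype and dose cannot be told apart among seized mice, and injection and handling cannot be told apart from the seizure. In whole brain, fewer cells of a type and less RNA per cell cannot be told apart.

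Oxidative phosphorylation makes most of the ATP that neurons spend on ion pumping and transmitter release. Complex I oxidises NADH and complex II oxidises succinate, complex III passes the electrons to cytochrome c, complex IV passes them to oxygen, and complex V, the ATP synthase, uses the proton gradient so formed. A few core subunits of complexes I, III, IV and V are encoded by mitochondrial DNA, and the remaining subunits, which are the ones examined here, are encoded in the nucleus. NRF1 (nuclear respiratory factor 1), ETS-family factors such as GABP and the factor YY1 are known to bind promoters of many of these nuclear genes.

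RefSeq promoter windows (GRCm38.p6), reaching from 250 bases before to 50 bases after the start of transcription, were found for 58 of the 71 genes, 63 windows in all. The NRF1 core, GCGCA and GCGC separated by 1 base of any kind, was present, on either strand, in 13 of the 63 windows (20.6%), against 4.6% of all 32851 windows of the same table and 8.42% of the 8409 windows of genes with a probe set on this array. The YY1 motif AANATGGCG was present in 11.1%, against 2.38% and 4.1%, and the ETS motif CCGGAAGT in 6.35%, against 3.89% and 6.68%. The 5 windows printed held no ETS or YY1 motif. They belong to subunits that the results below turn on and that hold the NRF1 core, which is in capitals as found on either strand.
Ndufa5, chr6:24527477-24527776, minus strand: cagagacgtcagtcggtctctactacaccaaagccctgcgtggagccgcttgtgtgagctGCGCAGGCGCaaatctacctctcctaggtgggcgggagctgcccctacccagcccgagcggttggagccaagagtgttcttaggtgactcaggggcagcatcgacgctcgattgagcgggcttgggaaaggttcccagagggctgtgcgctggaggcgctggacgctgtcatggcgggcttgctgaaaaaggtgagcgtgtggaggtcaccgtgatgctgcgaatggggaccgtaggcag
Sdha, chr13:74350191-74350490, minus strand: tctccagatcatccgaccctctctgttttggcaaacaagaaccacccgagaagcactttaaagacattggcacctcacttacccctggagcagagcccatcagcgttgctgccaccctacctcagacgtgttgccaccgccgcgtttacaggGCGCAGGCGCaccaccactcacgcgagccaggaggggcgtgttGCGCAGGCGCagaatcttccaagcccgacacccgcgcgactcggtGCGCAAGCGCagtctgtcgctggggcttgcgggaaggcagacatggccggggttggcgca
Sdhd, chr9:50603800-50604099, minus strand: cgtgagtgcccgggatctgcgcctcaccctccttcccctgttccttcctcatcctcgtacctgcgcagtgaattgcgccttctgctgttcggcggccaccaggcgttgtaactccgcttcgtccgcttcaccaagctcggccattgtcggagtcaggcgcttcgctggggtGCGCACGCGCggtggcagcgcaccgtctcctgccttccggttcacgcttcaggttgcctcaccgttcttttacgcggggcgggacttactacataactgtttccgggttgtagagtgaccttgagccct
Uqcrc1, chr9:108936398-108936697, plus strand: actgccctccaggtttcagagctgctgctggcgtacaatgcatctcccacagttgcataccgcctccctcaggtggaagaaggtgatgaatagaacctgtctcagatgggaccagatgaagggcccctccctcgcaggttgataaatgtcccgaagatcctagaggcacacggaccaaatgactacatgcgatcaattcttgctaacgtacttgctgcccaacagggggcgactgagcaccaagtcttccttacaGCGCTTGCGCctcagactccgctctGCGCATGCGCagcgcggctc
Cox6a1, chr5:115348909-115349208, minus strand: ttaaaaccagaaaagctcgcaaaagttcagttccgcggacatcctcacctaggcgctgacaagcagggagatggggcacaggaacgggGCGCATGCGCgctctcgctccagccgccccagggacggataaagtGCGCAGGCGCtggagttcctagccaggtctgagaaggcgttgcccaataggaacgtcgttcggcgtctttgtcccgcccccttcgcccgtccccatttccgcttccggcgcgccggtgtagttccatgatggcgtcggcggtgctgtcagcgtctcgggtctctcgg
Sdha held 3 cores, Uqcrc1 and Cox6a1 held 2, and Ndufa5 and Sdhd held 1. The windows of Ndufv1 and Ndufb2, which also recur below, held none of the 3 motifs. A match is a stretch of letters and not a shown binding site.

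The arrays fell into 2 classes by the quality controls printed on them, and the subunits have to be read against that split. Gapdh is represented by control sets near both ends of its transcript, and the log2 ratio of the 3 prime set to the 5 prime set ran from -0.48 to 0.096 in 9 arrays (called low-ratio) and from 1.13 to 2.57 in 19 arrays (called high-ratio). Beta-actin controls gave 0.37 to 0.70 and 1.53 to 2.44 for the same arrays. The low-ratio arrays came from 2 untreated and 3 seized alpha7 +/T mice and from 2 untreated and 2 seized beta4 null mice, and no wild-type array was among them. The mean signal of every array without its extreme 2% at each end was close to 150.1, and array medians ran from 43.6 to 61.1. The seizure label was borne out by Fos and Nr4a1, early genes of neuronal activity, which rose after seizure over the 3 genotypes by 1.99 ± 0.22 and 1.49 ± 0.15 on the log2 scale (limma, adjusted p = 5.19e-06 and 1.18e-06). Of 6 neuron markers with a probe set, 5 exceeded the array median in all 28 arrays, and of 8 skeletal or heart muscle markers, 6 exceeded it in no array.

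Over all 3 genotypes, no subunit passed the test 1 hour after the seizure. A probe set is called here when limma's p is under 0.05 after Benjamini-Hochberg adjustment across the 7350 tested. None of the 72 was called in the average seizure difference, against 0.408% of all probe sets tested, and 6 had an unadjusted p under 0.05 (4 higher, 2 lower, or 8.33% against 8.64% of all). The median log2 difference of the 72 was 0.0020, against 0.012 over all probe sets. For 62 of the 72 the 95% interval lay within 0.5 of 0 on the log2 scale. Complex medians were -0.011 for complex I, 0.0014 for III, -0.016 for IV and -0.0061 for V. The 4 complex II subunits had the highest complex median, 0.19, and 3 of them (Sdhb, Sdhc and Sdhd) had an unadjusted p under 0.05, with none called. With array weights, which give less weight to arrays far from their group, 9 of the 72 were called, and 645 of the 7350.

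**Figure D1:**
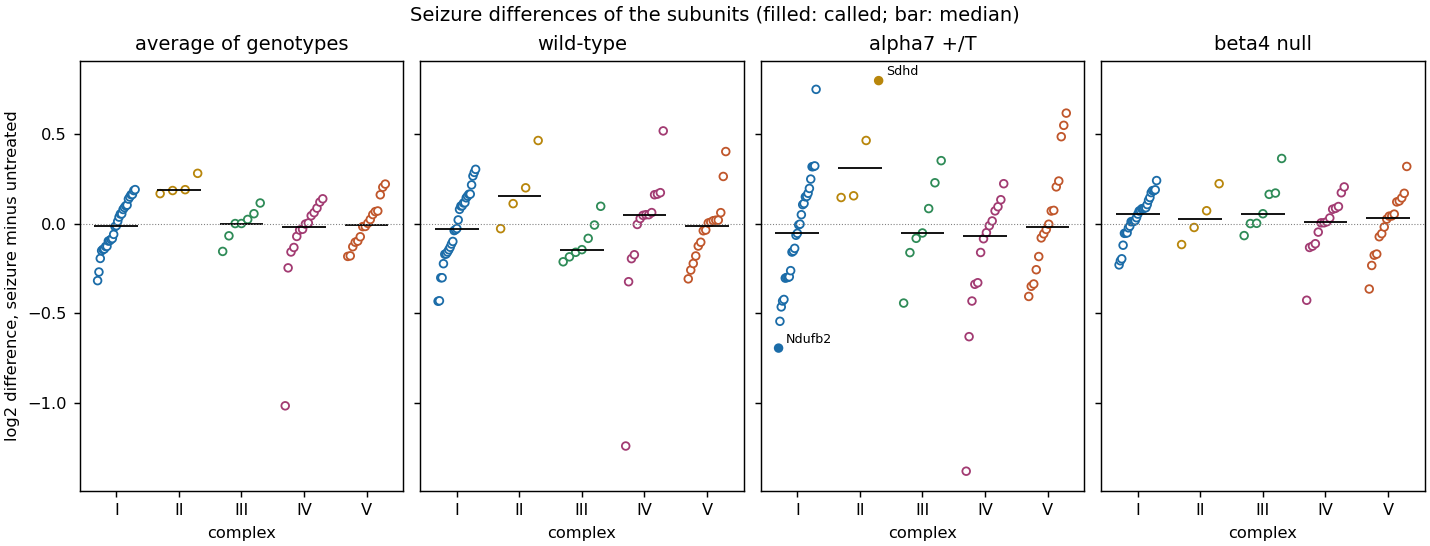
Log2 difference in signal between seized and untreated mice for each tested probe set of complexes I to V (points), for the average of genotypes and for each genotype, with complex medians as bars and called probe sets filled. Points lie around 0 in every panel, and the 2 called are Sdhd and Ndufb2 in alpha7 +/T mice.

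The member of each complex with the smallest p in the average seizure difference shows how the single values lay. Sdhb, the iron-sulfur subunit of succinate dehydrogenase, had a signal of 680, 889 and 997 (lowest, median and highest) in untreated wild-type mice and of 1016, 859 and 1051 after seizure. In alpha7 +/T mice it was 983, 655, 1222, 1119 and 977 untreated and 1001, 1266, 1169, 1045 and 923 after seizure. In beta4 null mice it was 1076, 999, 902, 853 and 1135 untreated and 1220, 1200, 1027 and 1174 after seizure. The seized and untreated ranges overlapped in each genotype, and the average difference was 0.19 ± 0.09 (SE; limma, adjusted p = 0.57). The corresponding differences were -0.32 ± 0.11 for Ndufb2 in complex I (adjusted p = 0.347, limma), -0.15 ± 0.10 for Uqcrq in complex III (0.726), -1.01 ± 0.42 for Cox6b2 in complex IV (0.514) and -0.18 ± 0.09 for Atp5d in complex V (0.589). The Cox6b2 probe set was dim, above its array's median in 5 of 28 arrays, and the other tested Cox6b2 probe set gave 0.12, of the opposite sign. The 3 tested probe sets of Atp5d also differed in sign, from -0.18 to 0.024, and the second one of Ndufb2 gave -0.14.

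Within wild-type mice, none of the 72 was called (background 0.0544%) and 3 had an unadjusted p under 0.05 by limma (4.24% of all probe sets did). These were Sdhc, a membrane anchor of complex II, at 0.46 ± 0.15, Ndufa10, a complex I accessory subunit, at 0.30 ± 0.12, and Ndufb2 at -0.43 ± 0.20. The second tested Ndufb2 probe set gave -0.11. With 3 seized wild-type mice, 22 of the 72 intervals lay within 0.5 of 0. Within beta4 null mice, none was called (background 0.0136%) and 1, Uqcr11 of complex III, had an unadjusted p under 0.05 by limma (1.74% of all), at 0.36 ± 0.16. The median differences were -0.0033 for wild-type and 0.029 for beta4 null mice. The test of whether the seizure difference varied with genotype called none (background 0.0272%), and 4 (Ndufb2, Ndufb7, Sdhc and Sdhd) had an unadjusted p under 0.05 by limma (7.66% of all).

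In alpha7 +/T mice, 2 of 72 subunit probe sets changed after the seizure (2.78%, against a background of 2.8%, with 1.71% of all probe sets higher and 1.09% lower), and 14 had an unadjusted p under 0.05 (19.4%, against 18.4%). Sdhd, the other membrane anchor of complex II, rose by 0.80 ± 0.22 on the log2 scale (1.74-fold; limma, adjusted p = 0.0446). Its signal was 412, 344, 467, 568 and 573 in the untreated mice and 778, 1213, 617, 858 and 684 after seizure, and the groups did not overlap. In wild-type mice Sdhd was 326, 638 and 726 (lowest, median and highest) untreated and 556, 610 and 512 after seizure, all 3 within the untreated range. In beta4 null mice it was 578, 493, 325, 420 and 291 untreated and 518, 445, 324 and 454 after seizure, which also overlap. Ndufb2, an accessory subunit of the complex I membrane arm, fell by 0.69 ± 0.18 on the log2 scale by 1 of its tested probe sets (adjusted p = 0.0309). That probe set gave 2928, 4697, 3066, 2274 and 2199 in untreated alpha7 +/T mice and 1307, 2053, 1827, 2072 and 1881 after seizure, with no overlap. The second Ndufb2 probe set gave -0.42 ± 0.16 and was not called (adjusted p = 0.15). Neither the Sdhd nor the Ndufb2 difference was shown to depend on genotype, since the interaction called no subunit.

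Both calls rested on few mice and on settings. The low-ratio arrays among seized alpha7 +/T mice were replicates 1, 2 and 3 and among the untreated ones replicates 3 and 4. Within the high-ratio arrays the log2 differences were 0.82 for Sdhd and -0.66 for Ndufb2, and neither was called (limma, adjusted p = 0.158 and 0.175). No subunit was called there by limma (background 0.177%), and 19 had an unadjusted p under 0.05, 11 higher and 8 lower (17.3% of all probe sets passed this). Within the low-ratio arrays Sdhd gave 0.70 and Ndufb2 -0.64, again not called. Other subunits were called in that fit, and their count is given with the alternatives below. With array class as a covariate, 14 of the 72 were called, 7 higher and 7 lower (19.4%, against 13.3% of all probe sets, of which 7.8% were higher and 5.51% lower), and both Sdhd and Ndufb2 were among them. The others included Ndufb3 (0.92), Atp5k (0.81), Atp5mpl (0.61) and Atp5o (0.55) above 0 and Ndufv1 (-0.49), Ndufb7 (-0.48), Uqcrq (-0.34) and Cox5b (-0.33) below 0. Without 1 mouse at a time the count ran from 0 to 4, and it was 0 without untreated replicate 1, 2 or 3 or seized replicate 1 of that genotype. It was 1 without any of the 3 seized wild-type mice, seized alpha7 +/T replicate 2, 3 or 4, untreated beta4 null replicate 4 or seized beta4 null replicate 2, and 4 without untreated alpha7 +/T replicate 5. The share of all probe sets called was not set beside these counts, so they cannot be read as particular to the subunits. With age as a covariate the count was 0. All 5 seized alpha7 +/T mice were 8 weeks old and 4 of 5 untreated ones were 6 weeks old, and the part of age in the result was not tested apart from that fit.

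Before treatment, alpha7 +/T and wild-type mice differed in 14 of the 72 probe sets (19.4%, against a background of 16%), 3 higher (4.17%, against 7.73%) and 11 lower in alpha7 +/T mice (15.3%, against 8.29%). At an unadjusted p under 0.05 there were 28 (38.9%, against 35.1%). When each array was centred on its median the split was 1 higher and 17 lower. The higher ones were Ndufv1, the NADH-binding core subunit of complex I (1.01 ± 0.27 on the log2 scale), Cox6b1 of complex IV (0.79 ± 0.20) and Ndufa10 of complex I (0.48 ± 0.10), with adjusted p from 0.0105 to 0.02 by limma. The lower ones included Ndufb3 (-1.24 ± 0.29), Ndufa5 (-0.95 ± 0.26), Ndufv3 (-0.66 ± 0.18), Ndufs1 (-0.55 ± 0.18) and Ndufc1 (-0.51 ± 0.17) of complex I and Uqcrh (-0.66 ± 0.20) and Uqcrb (-0.54 ± 0.19) of complex III. The remaining lower ones were Cox7a2 of complex IV (-0.58 ± 0.20) and, in complex V, Atp5k (-1.06 ± 0.32), Atp5mpl (-0.66 ± 0.22) and Atp5l (-0.58 ± 0.18). The median over the 72 was -0.20, against 0.063 over all probe sets.

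The low-ratio arrays held the extreme values of several of these subunits. Ndufb3 had a signal of 842, 1378 and 1696 (lowest, median and highest) in untreated wild-type mice and of 591, 614, 274, 471 and 1134 in untreated alpha7 +/T mice, of which the 2 low-ratio arrays gave 274 and 471. Ndufa10 was 122, 130 and 148 in the wild-type mice and 157 to 208 in the alpha7 +/T mice, with no overlap. Ndufv1 was 669, 954 and 1099 in the wild-type mice and 1342, 1175, 2786, 3235 and 1364 in the alpha7 +/T mice, and the 2 highest were the low-ratio arrays. All 14 differences moved nearer to 0 with array class as a covariate, where 6 stayed called (Ndufa10, Ndufv1, Cox6b1, Ndufb3, Ndufv3 and Ndufa5; 8.33%, against 9.1% of all probe sets). In the high-ratio arrays alone, limma called none (background 0.0408%) and 19 had an unadjusted p under 0.05, 3 higher and 16 lower (20.4% of all probe sets passed this), with Ndufb3 at -0.82, Ndufv1 at 0.52 and Ndufa10 at 0.49. Without low-ratio untreated alpha7 +/T replicate 3 the count was 0, without low-ratio replicate 4 it was 2, and without replicate 5 it was 22. It was 6 without untreated wild-type replicate 3, 4 or 5 and 8 without replicate 6. Of the untreated mice, 4 of 5 alpha7 +/T and 3 of 6 wild-type were 6 weeks old, and all 5 alpha7 +/T but 3 of 6 wild-type mice had an LT number in their title. Adding age to the fit left 6 called, and with the title prefix as a covariate or in mice of 7 weeks or older, none. The share of all probe sets called was not set beside the counts without 1 mouse or with age or prefix. These counts cannot be read as particular to the subunits.

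**Figure D2:**
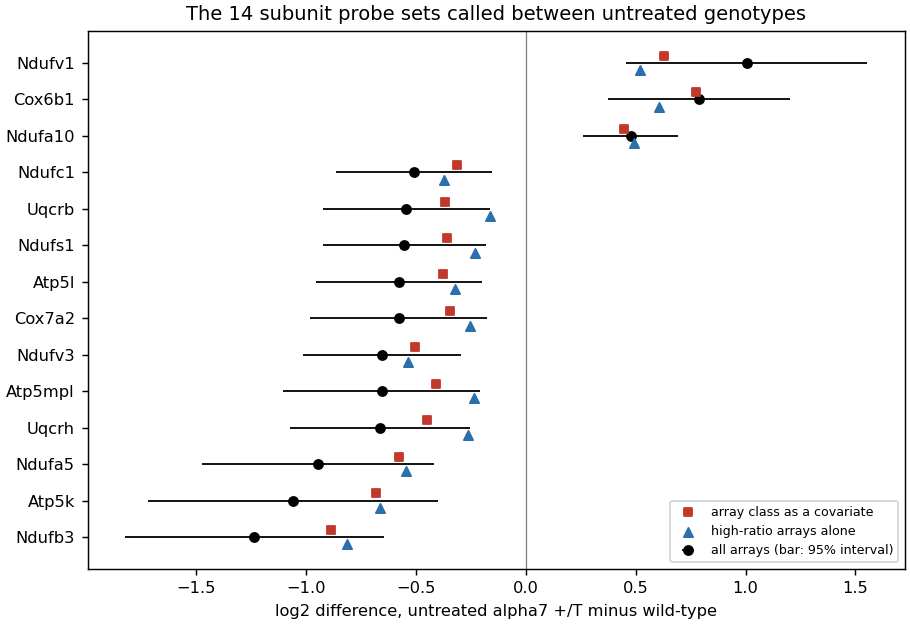
Log2 difference between untreated alpha7 +/T and untreated wild-type mice for the 14 called probe sets, from all arrays (circles with 95% intervals), with array class as a covariate (squares) and in the high-ratio arrays alone (triangles). Every square lies nearer to 0 than its circle, and Cox6b1 moves least, from 0.79 to 0.77.

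The other genotype comparisons called no subunit. Untreated beta4 null against untreated wild-type mice gave none (background 0.0136%), with 5 higher and 11 lower at an unadjusted p under 0.05 by limma (12.9% of all probe sets passed this). Its median of -0.21 became 0.0010 with array class as a covariate. Seized alpha7 +/T against seized wild-type mice gave none (background 0%), with 2 higher and 12 lower at an unadjusted p under 0.05 by limma (12% of all), and its median of -0.20 became 0.00084 with array class as a covariate. Seized beta4 null against seized wild-type mice gave none (background 0.0136%), with 1 lower at an unadjusted p under 0.05 by limma (4.42% of all), and its median of -0.10 became 0.063 with array class as a covariate. The low-ratio arrays, which all came from mutants, entered each of these comparisons on the mutant side. With array weights, 14 of the 72 were called for seized alpha7 +/T mice (1007 of the 7350) and 15 for seized beta4 null mice (1999 of the 7350).

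More of the 72 probe sets, assembly factors included, were called between the array classes than in any comparison of the study's conditions. Precision differed too. The median SE of the 72 was 0.10 between the classes, 0.12 in the average seizure difference and 0.18 to 0.23 in the comparisons of 2 groups. With the 6 groups held fixed, 52 of the 72 differed between the classes (72.2%, against 52.1% of all probe sets, and 79.2% against 57.5% at an unadjusted p under 0.05). Of these, 44 were lower in the low-ratio arrays (61.1%, against 25.4%) and 8 were higher (11.1%, against 26.7%), with a median of -0.35 against 0.011 over all probe sets. In complex I 20 of 29 were lower and 3 higher, in complex III 5 of 7 lower and 1 higher, in complex IV 7 of 14 lower, and in complex V 12 of 16 lower. Complex II stood on the other side, with 3 of 4 higher and none lower. In 9 of the 72 every low-ratio array lay below every high-ratio array (2.53% of all probe sets did), and in 2, Uqcrc1 and Ndufv1, every one lay above (6.03% of all).

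**Figure D3:**
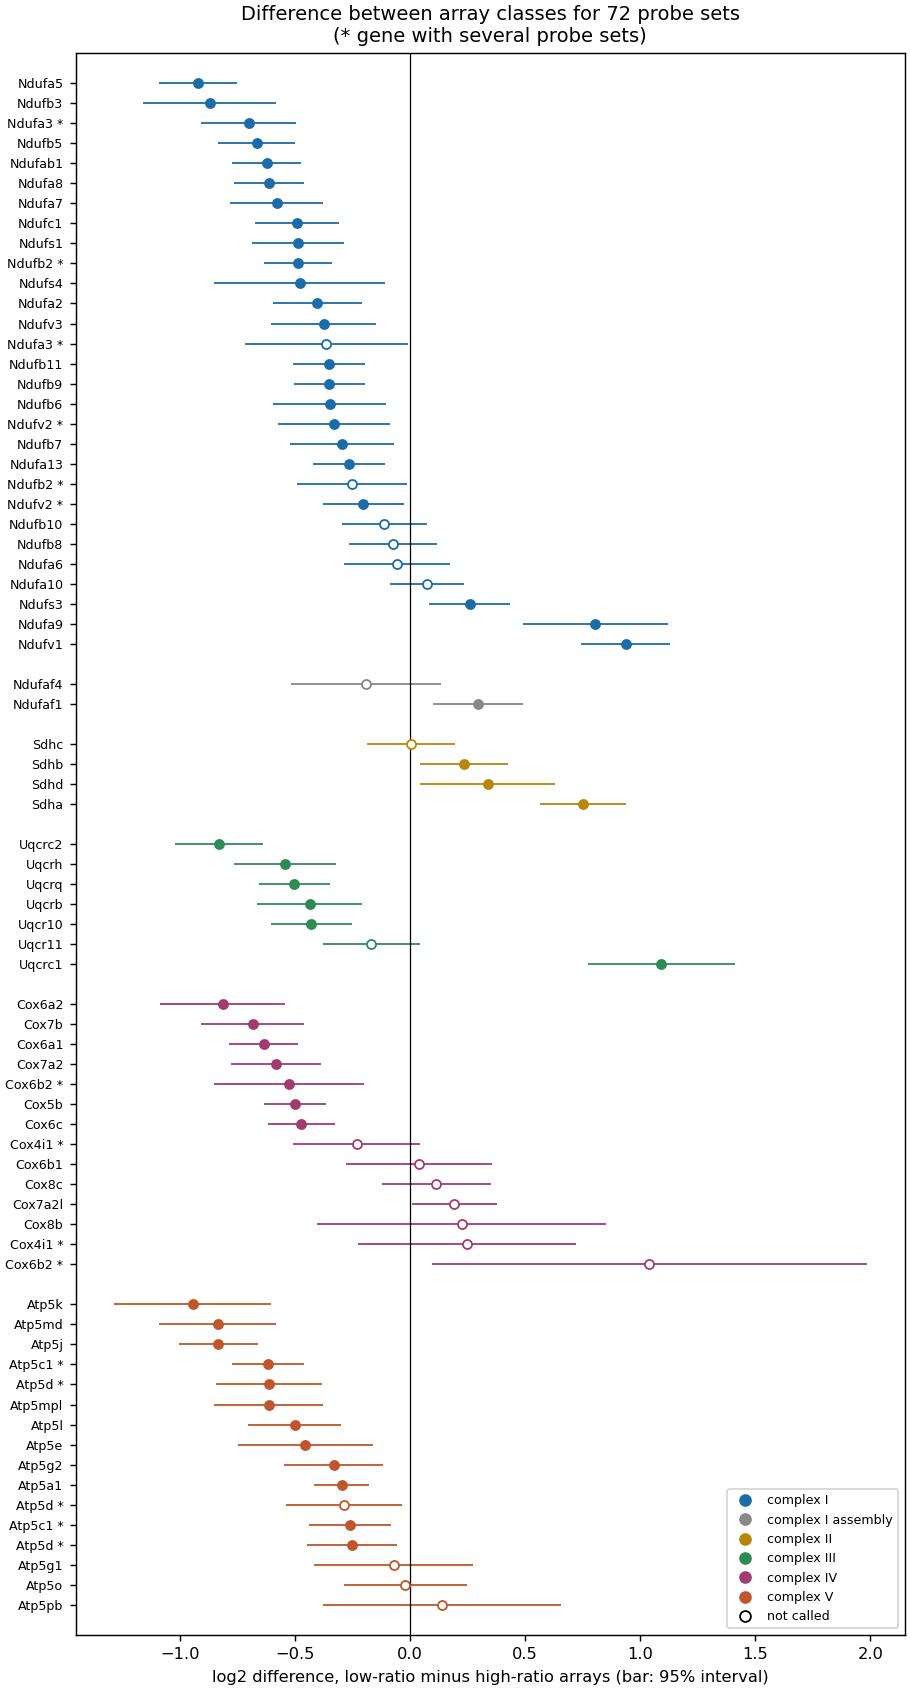
Log2 difference between low-ratio and high-ratio arrays, with 95% intervals, for each of the 72 tested probe sets, coloured by complex and filled where called. Most points of complexes I, III, IV and V lie left of 0, whereas Ndufv1, Ndufa9, Sdha and Uqcrc1 lie between 0.75 and 1.09.

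The subunits were also bright, and brighter probe sets were lower in the low-ratio arrays in general. Of the 72, 50 fell in the brightest 25% of all probe sets tested, where 74% of the subunits and 47.9% of all probe sets were lower and 12% and 18.1% were higher. Spearman's correlation between mean log2 signal and the class difference was -0.48 over the 72 and -0.29 over the 7350, as a description of probe sets that share the same arrays. The part of signal level in the class difference was not tested further. Scaling also bears on the directions. Centring each array on its median took the median of all probe sets from 0.011 to -0.22, and the split then was 53 lower and 4 higher, with Sdha still called higher in complex II while Sdhb (0.0045) and Sdhd (0.11) were not called. Under quantile normalization it was 43 lower and 8 higher.

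In complex I the smallest p was that of Ndufa5, an accessory subunit of the arm that faces the matrix, which was lower by 0.92 ± 0.08 on the log2 scale (1.89-fold lower; limma, adjusted p = 6.74e-10). Its signal was 798, 1145 and 1355 (lowest, median and highest) in the 9 low-ratio arrays and 1567, 2167 and 3396 in the 19 high-ratio arrays. In alpha7 +/T mice the low-ratio arrays gave 992 and 798 untreated and 1145, 1312 and 1247 after seizure, and the high-ratio ones gave 1567, 2025 and 1791 untreated and 2040 and 1979 after seizure. In beta4 null mice the low-ratio arrays gave 1109 and 1107 untreated and 1355 and 1216 after seizure, and the high-ratio ones gave 2308, 2486 and 2197 and then 2167 and 2632. The classes did not overlap in any of these 4 groups. The other complex I subunits that were lower included Ndufb3 (-0.87), Ndufa3 (-0.70), Ndufb5 (-0.67), the acyl carrier protein Ndufab1 (-0.62), Ndufa8 (-0.61) and Ndufa7 (-0.58).

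The 3 complex I subunits that were higher were Ndufv1 (0.94 ± 0.09; adjusted p = 5.33e-09), Ndufa9 (0.80 ± 0.15; 8.06e-05) and the core subunit Ndufs3 (0.26 ± 0.09; 0.0123). Ndufv1 ran from 1461 to 3235 in the low-ratio arrays and from 669 to 1364 in the high-ratio arrays. Its partners in the same NADH-oxidising part of the complex went the other way: the iron-sulfur subunit Ndufs1 was lower by 0.49 ± 0.10 and both probe sets of Ndufv2 were lower (-0.33 and -0.20). The assembly factor Ndufaf1 was higher by 0.30 ± 0.10 on the deposited scale, and neither assembly factor was called higher when arrays were centred on their median or quantile normalized.

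**Figure D4:**
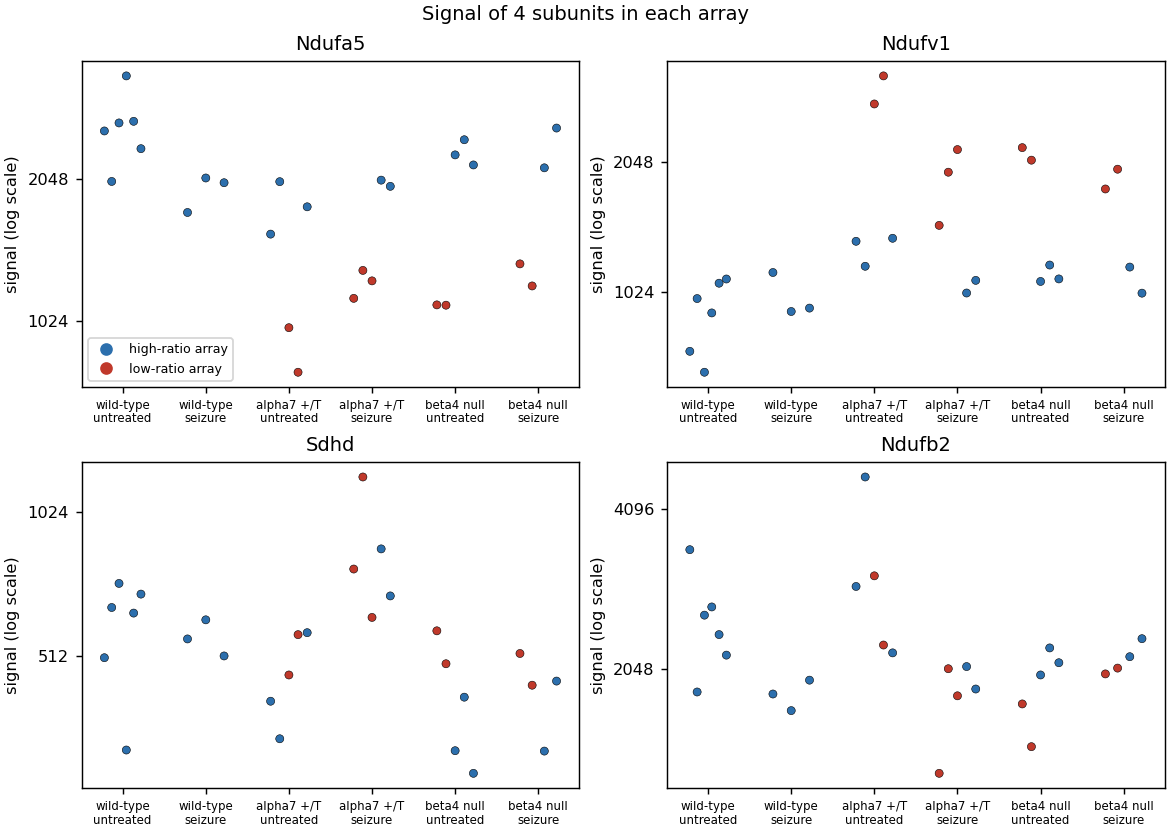
Signal on a log scale of Ndufa5, Ndufv1, Sdhd and Ndufb2 in each of the 28 arrays, by group, with low-ratio arrays in red and high-ratio arrays in blue. Red points lie below all blue points for Ndufa5 and above them for Ndufv1, and the seized alpha7 +/T points of Sdhd lie above the untreated ones in both colours.

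In complex II, Sdha, the flavoprotein that oxidises succinate, was higher by 0.75 ± 0.09 (1.68-fold; adjusted p = 1.22e-07, limma). Its signal was 197, 312 and 334 (lowest, median and highest) in the low-ratio arrays and 121, 178 and 204 in the high-ratio arrays, an overlap that comes from 1 low-ratio array. Sdhb was higher by 0.23 ± 0.09 and Sdhd by 0.34 ± 0.14, with adjusted p of 0.0362 and 0.0494, and Sdhc did not pass (0.0042, interval -0.19 to 0.20). Over 42 alternative fits Sdha kept its call in all, Sdhb lost it in 13 and Sdhd in 26.

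In complex III the core proteins Uqcrc1 and Uqcrc2, which sit next to each other in the complex, differed in opposite directions. Uqcrc1 was higher by 1.09 ± 0.16 (2.13-fold; adjusted p = 1.56e-06, limma), from 1114 to 1724 in the low-ratio arrays against 349 to 1094 in the high-ratio arrays. Uqcrc2 was lower by 0.83 ± 0.09 (1.78-fold lower; adjusted p = 3.89e-08), from 674 to 1139 against 1390 to 2238. The small subunits Uqcrh (-0.54), Uqcrq (-0.50), Uqcrb (-0.44) and Uqcr10 (-0.43) were lower, and Uqcr11 gave -0.17 without passing.

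In complex IV the smallest p was that of Cox6a1, the isoform of subunit 6a found in most tissues, which was lower by 0.64 ± 0.07 (1.55-fold lower; adjusted p = 5.08e-08, limma). Its signal was 3126, 4141 and 4374 in the low-ratio arrays and 4884, 5935 and 7466 in the high-ratio arrays, without overlap. Cox6a2, the isoform of heart and skeletal muscle, exceeded the array median in all 28 arrays and was lower as well, by 0.81 ± 0.13, while 6 of the 8 muscle markers exceeded it in none. Cox7b (-0.68), Cox7a2 (-0.58), Cox5b (-0.50) and Cox6c (-0.47) were lower too. Cox7a2l gave 0.19 ± 0.09, and Cox8b, a muscle isoform, 0.22 ± 0.31, neither called, and the 2 tested probe sets of Cox4i1 gave -0.23 and 0.25, also not called. The 2 tested probe sets of Cox6b2 differed in sign, at -0.52 (called) and 1.04 (not called), so its direction is uncertain. None of these isoforms was called after seizure, and the average seizure difference was -0.16 ± 0.12 for Cox6a1, -0.04 ± 0.17 for Cox6a2 and 0.06 ± 0.26 for Cox8b.

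In complex V, Atp5j, coupling factor 6 of the stalk that joins the parts of the synthase, was lower by 0.83 ± 0.08 (1.78-fold lower; adjusted p = 5.01e-09, limma). Its signal was 763, 875 and 968 in the low-ratio arrays and 1236, 1510 and 2078 in the high-ratio arrays, without overlap. The membrane-embedded small subunits Atp5k (-0.94), Atp5md (-0.84), Atp5mpl (-0.61) and Atp5l (-0.50) were lower, and of the catalytic head and its central stalk Atp5a1 (-0.30), Atp5c1 (-0.62 and -0.26) and Atp5e (-0.45) were lower. The c subunit gene Atp5g2 was lower (-0.33) and its paralogue Atp5g1 gave -0.07 without passing. Atp5o and Atp5pb, both of the peripheral stalk, gave -0.02 and 0.14 and did not pass.

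**Figure D5:**
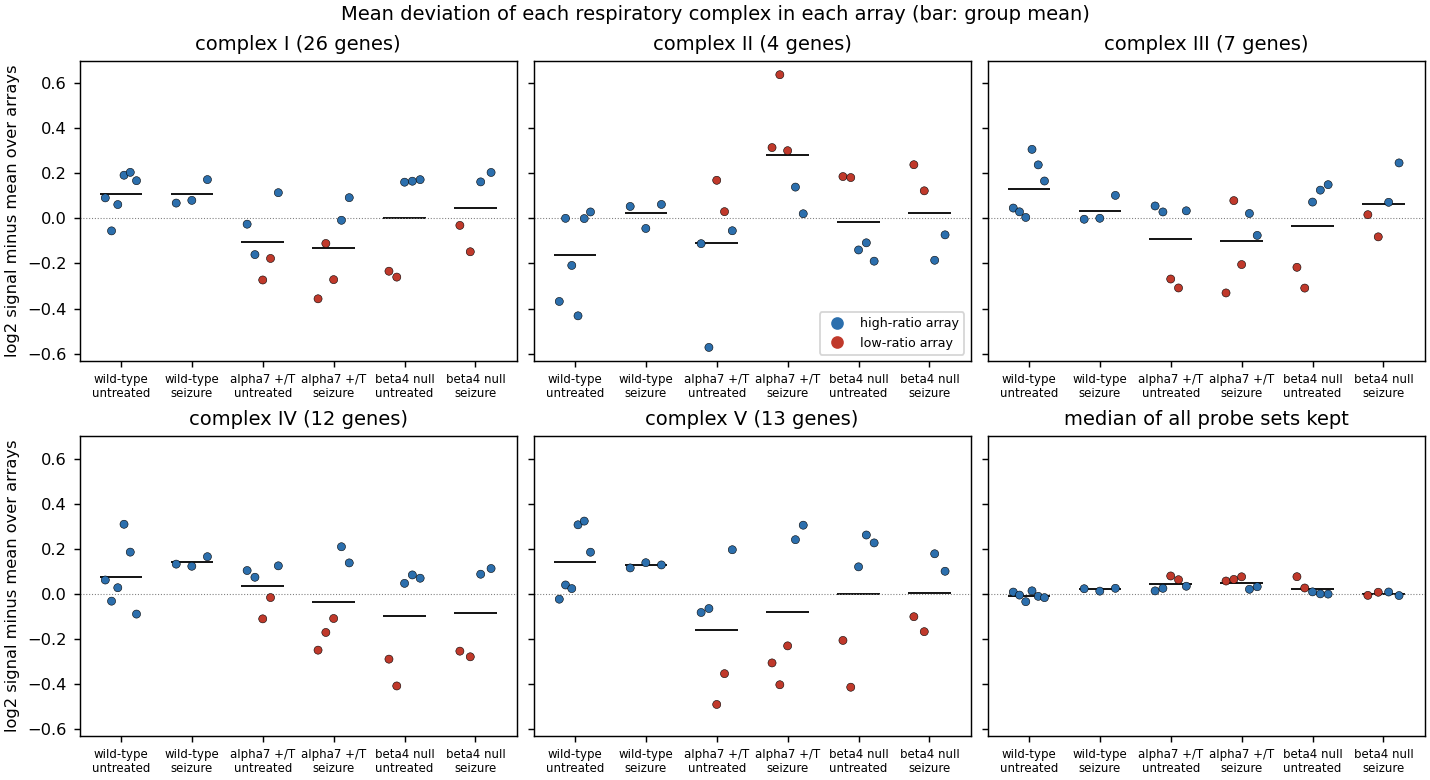
Mean deviation of log2 signal from the mean over the 28 arrays, for the genes of each complex (1 probe set per gene) and for the median of all probe sets, by group, with low-ratio arrays in red and group means as bars. The 9 red points average -0.21 for complex I and -0.30 for complex V, against 0.10 and 0.14 for the blue ones, and 0.24 against -0.11 for complex II.

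Averaged over the genes of a complex, the low-ratio arrays lay at -0.21 ± 0.10 (SD, n = 9) for complex I, -0.18 ± 0.15 for III, -0.21 ± 0.12 for IV and -0.30 ± 0.13 for V on the log2 scale, relative to the mean over arrays. The high-ratio arrays lay at 0.098 ± 0.10 (SD, n = 19), 0.086 ± 0.098, 0.10 ± 0.087 and 0.14 ± 0.12. Complex II lay at 0.24 ± 0.17 and -0.11 ± 0.18. The median of all probe sets lay at 0.048 and 0.0063. For complex II the seized alpha7 +/T group had the highest mean, 0.28 ± 0.23 (SD, n = 5), and 3 of its 5 arrays were low-ratio ones. Its 2 high-ratio arrays gave 0.14 and 0.021, with a mean of 0.080. The 3 untreated high-ratio arrays of that genotype gave -0.11, -0.57 and -0.055, with a mean of -0.25, and the -0.57 was that of replicate 2 alone.

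Subunits varied together over the arrays in the median pair, but not in every pair. Pearson correlations of single pairs ran from -0.91 to 0.91 within a complex and from -0.89 to 0.94 between complexes. The median Pearson correlation over the 28 arrays was 0.40 for 497 pairs of subunit probe sets in the same complex, 0.23 for 1519 pairs in different complexes and 0.00040 for all pairs of probe sets tested. With group and class removed it was 0.13, 0.080 and -0.0023. These are descriptions, since the pairs share arrays and class and, among all probe sets tested, for some genes transcripts.

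The other mitochondrial and energy genes are given by list for the class difference, with up to 3 called genes of smallest p in each. In brackets is the split with arrays centred on their median, which moves the median of all probe sets below 0. Without centring, 26.7% of all probe sets tested were higher and 25.4% lower, and the shares with centring are not given. Among carriers and other subunits 2 of 12 were higher and 5 lower (2 and 6 centred), with the ADP/ATP carrier Slc25a5 at 1.02, the ATPase inhibitor Atpif1 at -0.75 and cytochrome c1 (Cyc1), a complex III subunit outside the naming rule, at -0.58. Among assembly factors 1 of 11 was higher and 4 lower (0 and 8 centred), with Sdhaf1 at -0.73, Lrpprc at -0.62 and Cox18 at -0.50. Among import genes 2 of 18 were higher and 7 lower (2 and 11 centred), with Hspe1 at -1.09, Tomm7 at -0.82 and Tomm70a at -0.81. Of 56 mitochondrial ribosomal protein genes 14 were higher, near the share of all probe sets, and 21 lower (7 and 30 centred). The smallest p were those of Mrps25 (-1.03), Mrps36 (-1.001) and Mrpl18 (-0.83). Some of the 14 differed as much in size, such as Mrpl11 (1.04) and Mrpl39 (0.91), which were chosen after their values were seen. Of 19 genes of the citrate cycle and pyruvate dehydrogenase 5 were higher and 5 lower (3 and 10 centred). Without centring this split lay near the shares of all probe sets. The smallest p in this list were those of Sucla2 (-0.70), Dlst (0.94) and Pdk3 (-0.45). Of 14 glycolysis genes 8 were higher and none lower (5 and 2 centred), with Pfkm at 1.84, Pkm at 1.36 and Ldhb at 0.76. Of the regulators 2 of 9 were higher and 1 lower (1 and 2 centred), with Yy1 at -0.70, Esrra at 0.69 and Sirt3 at 0.47. After seizure, averaged over genotypes, limma called none of the 139 genes of these 7 lists, against 0.408% of all probe sets tested. Of the 139, 9 had an unadjusted p under 0.05 by limma (8.64% of all probe sets did). The gene with the smallest p in each list had an adjusted p from 0.352 (Cox18) to 0.673 (Tomm40).

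Markers of cell types differed between the array classes too, where 26.7% of all probe sets tested were higher and 25.4% lower in the low-ratio arrays. The astrocyte and endothelial splits below lay near these shares. Of 2 blood markers 1 was higher and 1 lower, and of 3 choroid plexus markers 1 was higher and 2 lower. Of 2 tested muscle markers 0 were higher and 1 lower. Of 6 neuron markers 5 were higher in the low-ratio arrays and 1 lower, and their summed signal ran from 8252 to 11566 in the low-ratio and from 7226 to 9669 in the high-ratio arrays. Of 6 microglia markers 4 were higher and 2 lower (sums 1901 to 2541 and 1421 to 1978), and of 5 oligodendrocyte markers 3 were higher and 1 lower (sums 6526 to 9904 and 5436 to 8328). Of 6 astrocyte markers 1 was higher and 2 lower (6182 to 7269 and 5689 to 7198), and of 6 endothelial markers 2 were higher and 1 lower (723 to 1362 and 729 to 1745). The sums take in all markers with a probe set, also those not tested. These were 7 for microglia, 6 for oligodendrocytes and 7 for endothelial cells. The endothelial split turned to 1 higher and 2 lower with arrays centred on their median and with quantile normalization, and the oligodendrocyte split was 2 and 1 centred. Of the cell type markers, the endothelial gene Eng was the 1 called in the average seizure difference, at -0.57 ± 0.12. The part of these markers, and of the control ratio itself, in the class difference of the subunits was not tested.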

How the data were processed

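Total RNA from whole brain was hybridised to Affymetrix U74Av2 arrays, per the labels. Per the submitters' processing notes, the authors ran MAS5, which gives each probe set a linear signal intensity. A MAS5 version was not found in the labels. The deposited values were not normalized again before log2 was taken. Probe sets were named by the platform annotation; gene identifiers of all 98 matched the mouse gene table (GRCm38.p6). Of 12488 probe sets 66 controls were left out, and those above their array's median in at least 3 arrays were kept (59.2%). No detection call was used, so a dim signal was not set against background. The precision is limited by how many arrays each group has. The labels give each sample as 1 mouse.

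Differences were tested with limma 3.58.1 (R 4.3.3; lmFit, eBayes with trend), with a mean for each of 6 groups over 28 arrays, two-sided, Benjamini-Hochberg at 0.05; the class difference is the coefficient of array class (log2 Gapdh ratio below 0.5) added to that fit. Errors are SE unless SD is named. Fits were checked on simulated data. Members, lists and the class definition were chosen with earlier results of these data known. Named are the called subunits (at most 6 per complex where over 30 were called), the smallest p of each complex, genes whose probe sets disagree, Cox and c subunit isoforms, and up to 3 genes of each list; for genes with more than 1 tested probe set the values of each are given, or of the brightest or the one with the smallest p. Other subunits named in the class difference, and the promoters printed, were chosen after their values were seen. Alternatives were other scalings, filters, variance models, covariates and sets of mice.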

Additional observations from a re-analysis of the deposited data

Results flagged for a closer look

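Among 85 groups of single-array values examined, 2 held a mouse far from the others of its group, where chance gives about 4.25 at this limit. Cox6b2, by its dim probe set, had a signal of 7.22 in untreated alpha7 +/T replicate 5, against 66.0 to 110.0 in the other 4 mice of that group. Ndufb2, by the probe set called after seizure in alpha7 +/T mice, had a signal of 1307 in seized alpha7 +/T replicate 1, against 1827 to 2072 in the other 4. Without that mouse the Ndufb2 difference was -0.58 and was not called (limma, adjusted p = 0.0894).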

How the results depend on the processing

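Counts of called subunits in the average, wild-type and beta4 null seizure differences, the 3 genotype comparisons at 0 and the interaction stayed at 0 under the alternatives run, except with array weights, which gave 9 for the average, 14 for seized alpha7 +/T and 15 for seized beta4 null against seized wild-type mice, and with the Gapdh ratio as a covariate, which gave 1 for the interaction; the cause was not tested. For the seizure difference in alpha7 +/T mice (2) the count was 14 with array class and 13 with the Gapdh ratio as a covariate, 8 in low-ratio arrays alone (added after the data were seen), 1 without the filter, without trend and with array weights, and 0 with median centring, age as a covariate, high-ratio arrays alone, mice of 7 weeks or older and only the groups compared. Leaving out 1 mouse gave 0 to 4. For untreated alpha7 +/T against wild-type mice (14) it was 9 with quantile normalization and without the filter, 8 with the Gapdh ratio as a covariate and with only the groups compared, 6 with array class or age as a covariate, and 0 with the title prefix as a covariate, high-ratio arrays alone and mice of 7 weeks or older. Leaving out 1 mouse gave 0 to 22. Median centring turned its split from 3 higher and 11 lower to 1 and 17. The class difference (52) ran from 49 to 59 over the other alternatives, was 39 in untreated and 42 in seized mice alone, and 46 to 54 without 1 mouse. The share of all probe sets called also varied. For the alpha7 +/T seizure difference it was 2.8%, 13.3% with array class as a covariate and 0.177% in high-ratio arrays alone. For untreated alpha7 +/T against wild-type mice it was 16%, 9.1% and 0.0408%. Counts without such a share cannot be read as particular to the subunits. Values that changed sign, none of them called, were Cox6b2 in the average seizure difference (0.11 in mice of 7 weeks or older), in beta4 null mice Ndufab1 (-0.085) and Atp5e (-0.12) with array weights and Cox6c (-0.25 to 0.0098 leaving out 1 mouse, the last without seized replicate 2, and 0.0079 in low-ratio arrays alone), and Ndufb2 in the interaction (0.11 in mice of 7 weeks or older). No paired analysis was possible because the labels carry animal numbers that differ between groups. Groups of 3 to 6 mice limit the precision.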

Other observations

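Probe sets paired with a subunit gene and a near-identical copy or pseudogene were outside the rule, and 9 of these 10 were bright enough to be tested. Their reads on the copies cannot be told apart. By array class, 25.4% of all probe sets tested were lower in the low-ratio arrays and 26.7% higher. Of the 9, 6 were lower and none was higher. They were the probe set of Ndufab1 and its pseudogene (-1.06 ± 0.10 on the log2 scale), that of Atp5c1 and its pseudogene (-0.75 ± 0.11), 1 of the 2 of Ndufs6 and Ndufs6b (-0.73 ± 0.08), that of Ndufs5 and its pseudogene (-0.46 ± 0.10) and both of Cox7c and Gm12338 (-0.47 ± 0.08 and -0.43 ± 0.12). The second Ndufs6 probe set gave -0.10 ± 0.10, that of Ndufa11 and Ndufa11b -0.12 ± 0.09, and that of the Ndufb4 genes -0.06 ± 0.34, and none of these passed. Between alpha7 +/T and wild-type mice without treatment, the Atp5c1 probe set was the 1 called, at -0.86 ± 0.24 (limma, adjusted p = 0.0238). The background of that comparison was 16% of all probe sets, and its low-ratio arrays all came from alpha7 +/T mice.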
